A study of Solanum lycopersicum with 2 samples.

Results

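The core cell cycle kinases and regulators of tomato (Solanum lycopersicum) were compared between leaves in which the B-type cyclin gene SlCycB2 was manipulated in opposite directions. They comprise 8 genes, chosen by identifier from the 34725 gene models of the deposited table, namely CDKA1, CDKB1, CDKB2;1, CycA3;1, CycD3;1, WEE1, CCS52A and CCS52B. SlCycB2 itself is not one of them. The 8 genes were chosen with earlier results of these data known. One RNA sequencing library came from SlCycB2 overexpression plants and 1 from SlCycB2 RNAi plants, where silencing of the gene was intended. The material was young primary leaf of mature plants of the cultivar Ailsa Craig. The promoter of each construct, the number of lines and the number of plants pooled are not stated in the labels, and a wild-type leaf was not analysed here. A difference therefore describes these 2 libraries, with no replicate error and no test, and cannot be assigned to either manipulation alone.

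Progress through the plant cell cycle depends on cyclin-dependent kinases, which act only when bound to a cyclin. CDKA is the kinase used at both the entry into DNA replication and the entry into mitosis, and the B-type kinases, found in plants, act around mitosis. D-type cyclins carry growth signals into the start of the cycle, and A3-type cyclins are linked to DNA replication in other plants such as tobacco and Arabidopsis. WEE1 is a kinase that inhibits cyclin-dependent kinases by phosphorylation. CCS52 proteins activate the anaphase-promoting complex, the ubiquitin ligase that sends mitotic cyclins to degradation. In tomato, WEE1 and CCS52A have been studied for their part in the endocycle of the fruit, in which DNA is replicated without division. Young leaves hold both dividing cells and cells that have left division.

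The deposited table gives identifiers without names. A RefSeq gene table (assembly SLM_r2.1) held an entry for each of the 8 names, in part without the number after the semicolon, and for 7 of the 8 that entry lay on the chromosome that the identifier gives. The exception was Solyc12g088530, listed as CycA3;1, which is on chromosome 12 by its identifier, whereas the RefSeq gene CycA3 is on chromosome 10. It is called by its identifier here. Beyond the chromosome, the pairing of names with identifiers was not checked. CDKB2;1 and CycD3;1 are called CDKB2 and CYCD3, their RefSeq symbols. The others are CDKA1 (Solyc08g066330), CDKB1 (Solyc10g074720), CDKB2 (Solyc04g082840), CYCD3 (Solyc02g092980), WEE1 (Solyc09g074830), CCS52A (Solyc08g080080) and CCS52B (Solyc06g043150).

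Levels are in RPKM, reads per length of gene model and per mapped read total, and were compared as log2 of (RPKM + 1) for overexpression over (RPKM + 1) for RNAi. This log2 difference understates the change of low genes. The comparison covered the 19466 genes whose RPKM averaged 1 or more over both libraries, and all 8 cell cycle genes were among them. The median log2 difference of all compared genes was 0.13 rather than 0. The difference of each of the 8 genes is therefore also given after centring on that median. Differences of other genes are given without centring. Read totals were not given. The gene with the largest difference was Solyc10g083140, at 12.34 RPKM in RNAi leaf and 4816 RPKM in overexpression leaf. The table does not pair it with a name, so the manipulated gene was not checked by name. As a check of the tissue, 5 loci written down from general knowledge as Rubisco small subunits, abundant in leaf, made up 6.09% of summed RPKM in RNAi leaf and 4.95% in overexpression leaf. This pairing was not checked against an annotation, and 1 of the 5 was at only 2.17 and 2.30 RPKM.

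All 8 genes were detected in both libraries, and 7 of the 8 were higher in overexpression leaf, against 67.8% of all compared genes. Their log2 differences ranged from -0.12 for CCS52A to 0.83 for CYCD3, with a median of 0.60. With 1 added to each RPKM value, 0 of the 8 were at least 2-fold apart, against 4.52% of all compared genes. As a plain ratio WEE1, the lowest of the 8 in level, was past 2-fold, at 2.40. At a 1.5-fold limit, 4 of the 8 were higher and 0 lower, against 9.37% and 4.59% of all compared genes. The 4 were CYCD3, CCS52B, WEE1 and CDKB2. These counts are without centring, after which CDKB2, at 0.57, fell below the 1.5-fold limit. Summed over the 8 genes, the level was 124.2 RPKM in RNAi leaf and 179.7 RPKM in overexpression leaf. After centring, 6 of the 8 were higher and 2 lower, and their median log2 difference was 0.47. Centring puts the median of all compared genes at 0, with about as many genes above it as below. The share of 67.8% therefore does not apply to the centred counts. In whole leaf, a change in the number of cells of a type and a change in RNA per cell cannot be told apart. The Rubisco share given above differed between the libraries as well, and its part in these differences was not tested.

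**Figure D1:**
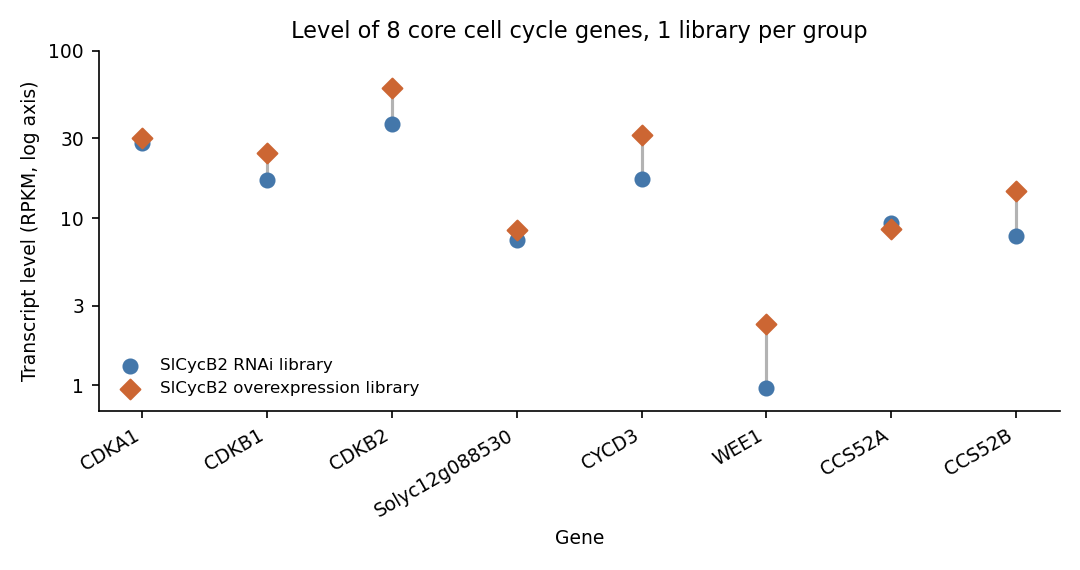
Transcript level of the 8 genes in RPKM on a log axis, with circles for the RNAi library, diamonds for the overexpression library and a grey line joining the 2 values of a gene. The diamond is the higher symbol for 7 of the 8 genes, and WEE1, at 0.97 and 2.33 RPKM, lies lowest in both libraries.

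Among the kinases, both B-type genes were higher in overexpression leaf, while CDKA1 was nearly level. CDKA1, the kinase used throughout the cycle, was at 28.19 RPKM in RNAi leaf and 30.28 RPKM in overexpression leaf, a log2 difference of 0.10. That is below the median of all compared genes, and the sign turned on centring, to -0.035. CDKB1 was at 16.91 RPKM in RNAi leaf and 24.40 RPKM in overexpression leaf, a ratio of 1.44 with a log2 difference of 0.50. After centring its difference was 0.37. CDKB2 had the highest level of the 8 genes in both libraries, at 36.36 RPKM in RNAi leaf and 59.83 RPKM in overexpression leaf. Its ratio was 1.65 and its log2 difference 0.70, or 0.57 after centring. In Arabidopsis, transcripts of the B2 type are confined most closely to the period around mitosis.

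The differences were set against the 1000 compared genes closest to each gene in mean level, which describe the spread among genes of these 2 libraries and not between plants. Of the genes close to CDKA1 in level, 55.5% had a higher log2 difference than CDKA1. For CDKB1 this share was 8.9%, and for CDKB2 it was 2.9%. CDKB2 thus lay beyond the 95th percentile of genes at its level, which was 0.55, and CDKB1 lay within its own, which was 0.65.

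The 2 cyclins had unlike values. CYCD3, the D-type cyclin, was at 17.20 RPKM in RNAi leaf and 31.25 RPKM in overexpression leaf. Its ratio was 1.82 and its log2 difference 0.83, or 0.69 after centring, close to those of CCS52B, which had the larger plain ratio at 1.87. Of the 1000 genes closest to it in level, 1.8% had a higher difference. CYCD3 lay below CDKA1 by level in RNAi leaf and just above it in overexpression leaf. Solyc12g088530, the locus listed as an A3-type cyclin, was at 7.38 RPKM in RNAi leaf and 8.50 RPKM in overexpression leaf. Its log2 difference of 0.18 was close to the median of all compared genes, and 0.046 remained after centring. Of the genes closest to it in level, 49.1% were higher in difference. Whether it shares reads with similar genes is not known, since the labels do not say how reads mapping to several places were treated.

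WEE1, the inhibitory kinase, had the largest plain ratio and the lowest level. It was at 0.97 RPKM in RNAi leaf and 2.33 RPKM in overexpression leaf, a ratio of 2.40. With the pseudocount, the log2 difference was 0.76, or 0.62 after centring. At this level the spread between genes was wide. Among the 1000 compared genes closest in level, at a mean of 1.41 to 1.94 RPKM, the SD of the log2 difference was 0.62 and 11.0% were higher than WEE1. The value depended on the pseudocount, at 1.18 with 0.1, which put WEE1 past 2-fold, and at 0.30 with 5. The depth behind the 2 values is unknown.

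The 2 activators of the anaphase-promoting complex went apart in value. CCS52A was at 9.38 RPKM in RNAi leaf and 8.56 RPKM in overexpression leaf, the one gene of the 8 that was lower there, with a log2 difference of -0.12. After centring the difference was -0.25, and 15.5% of the genes closest in level were lower still. CCS52B was at 7.78 RPKM in RNAi leaf and 14.55 RPKM in overexpression leaf, a ratio of 1.87 with a log2 difference of 0.82, or 0.69 after centring. Of the genes closest in level, 2.4% were higher. Of the 8 genes, 3 (CDKB2, CYCD3 and CCS52B) lay beyond the 95th percentile of genes at their level. The order of this pair thus turned between the libraries, with CCS52B at 0.83 times the level of CCS52A in RNAi leaf and 1.70 times in overexpression leaf. In Arabidopsis, CCS52B transcripts appear from the entry into mitosis, and those of the CCS52A type from late mitosis onwards.

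**Figure D2:**
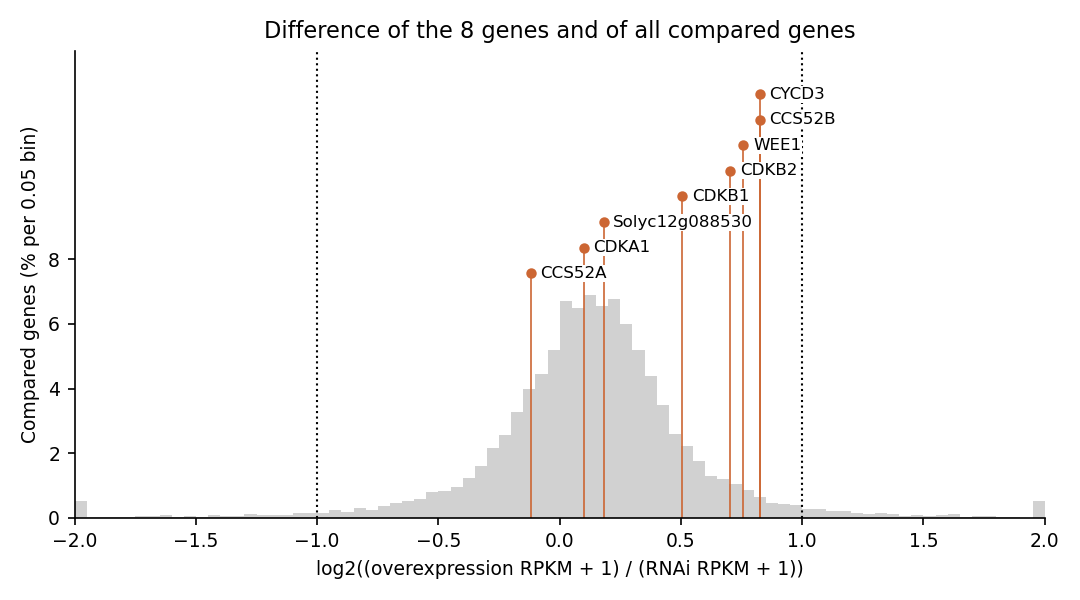
Distribution of the log2 difference, overexpression over RNAi with 1 added to each RPKM value, over the 19466 compared genes (grey, percent of genes per bin, with values beyond the axis gathered in the outermost bins) and the value of each of the 8 genes (orange). CDKA1 and Solyc12g088530 lie in the middle of the distribution, CCS52A lies to their left, below the first quartile of -0.070, CDKB1, CDKB2, WEE1, CCS52B and CYCD3 lie on its right side, and none passes the dotted 2-fold lines.

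Ratios between genes of the same library do not depend on how the 2 libraries are scaled to each other, and RPKM, being per length, allows levels of different genes to be compared. CDKB1 stood at 0.60 times the level of CDKA1 in RNAi leaf and 0.81 times in overexpression leaf. CDKB2 stood at 1.29 times CDKA1 in RNAi leaf and 1.98 times in overexpression leaf. Together the 2 B-type kinases were at 1.89 times CDKA1 in the first and 2.78 times in the second. The ratio of CDKB2 to CDKB1 was closer between the libraries, at 2.15 and 2.45.

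CYCD3 was at 0.61 times CDKA1 in RNAi leaf and 1.03 times in overexpression leaf. WEE1 was at 0.034 times CDKA1 in RNAi leaf and 0.077 times in overexpression leaf. CCS52A went the other way, from 0.33 times CDKA1 in RNAi leaf to 0.28 times in overexpression leaf. The ratio of CDKB2 to CCS52A was 3.88 in RNAi leaf and 6.99 in overexpression leaf. The ratio of CDKB2 to CCS52B was nearly level, at 4.67 and 4.11. These ratios move with the gene used as reference.

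**Figure D3:**
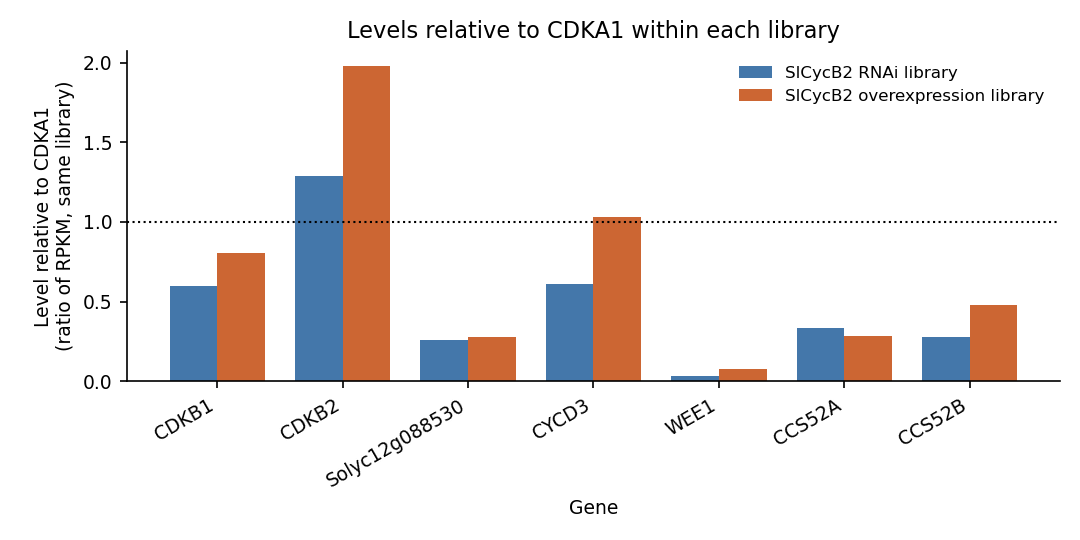
Level of 7 genes as a ratio to CDKA1 in the same library (bars from 0, RNAi in blue and overexpression in orange, 1 library each, so no error bars); the dotted line marks the level of CDKA1. CDKB2 is above CDKA1 in both libraries, CYCD3 goes from 0.61 to 1.03, and CCS52A has the lower bar in overexpression leaf.

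The order of levels was similar in both leaves. In the RNAi library it ran from CDKB2 through CDKA1, CYCD3, CDKB1, CCS52A, CCS52B and Solyc12g088530 down to WEE1. In the overexpression library CYCD3 passed CDKA1 and CCS52B passed CCS52A, and the other places stayed as they were. With 1 library a group, whether neighbours in this order differ beyond their spread could not be judged. In the RNAi library the closest neighbours were CYCD3 and CDKB1, at 17.20 and 16.91 RPKM, and in overexpression leaf Solyc12g088530 and CCS52A, at 8.50 and 8.56 RPKM. CDKB2 was above 87.5% of detected genes in RNAi leaf and above 91.9% in overexpression leaf. WEE1 was above 18.8% and 28.6%, and it was the one gene of the 8 below the median of detected genes, which was 6.19 RPKM in RNAi leaf and 6.99 RPKM in overexpression leaf.

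The differences of the 8 genes were also set beside their chromosomal surroundings, taken as the 10 nearest compared identifiers on each side. The median log2 difference of these 20 neighbours lay between 0.0016, around WEE1, and 0.23, around CYCD3. For CDKB2, CYCD3 and WEE1, 0 of the 20 neighbours had a higher difference than the gene itself. For CDKB1 and CCS52B, 1 of the 20 did. Around CDKA1 and CCS52A, 10 and 15 of the 20 were higher. Around Solyc12g088530, 9 of the 20 were higher. They include Solyc12g088500 and Solyc12g088520, named after their values were seen. Both were at 1.15 RPKM in RNAi leaf, and at 2.44 and 2.63 RPKM in overexpression leaf. Both are also among the other cell cycle loci described next, so these groups overlap.

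Other cell cycle genes were given by 11 identifiers written down from general knowledge as cyclins, inhibitors of cyclin-dependent kinases and the retinoblastoma-related gene. Their functions were not checked against an annotation, so they are described as a group. The list was drawn up with earlier results of these data known. Its counts therefore describe these loci only and give no independent support to the core genes above. All 11 were compared, at 1.15 to 18.17 RPKM in RNAi leaf and 2.25 to 40.60 RPKM in overexpression leaf. Of the 11, 10 were higher in overexpression leaf, against 67.8% of all compared genes. Past the 2-fold limit lay 1 higher and 0 lower locus, against 2.60% and 1.92% of all compared genes. Their median log2 difference was 0.68, beside 0.13 for all compared genes, and their range was -0.10 to 1.30. The one past 2-fold, named after its values were seen, was Solyc04g078470, at 15.86 RPKM in RNAi leaf and 40.60 RPKM in overexpression leaf. At the 1.5-fold limit 6 of the 11 were higher, against 9.37% of all compared genes. This count is without centring and was not repeated with it. Loci close to that limit can fall below it after centring, as CDKB2 did.

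Only 2 libraries do not allow a search for genes with a like pattern, since many genes share any given ratio. A log2 difference within 0.1 of that of CYCD3 was found for 514 other compared genes, and within 0.1 of that of CDKA1 for 5179.

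**Figure D4:**
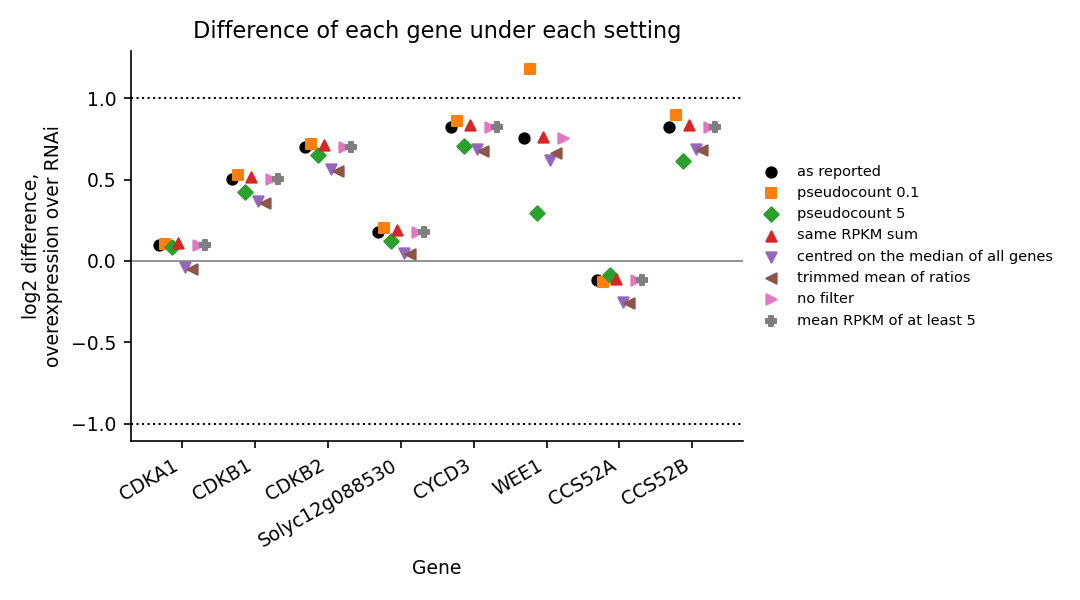
Log2 difference of each of the 8 genes, overexpression over RNAi, as reported (black) and under 7 other settings of pseudocount, scaling and filter; dotted lines mark 2-fold. CDKA1 crosses 0 under 2 of the rescalings, WEE1 spans 0.30 to 1.18, and the genes other than CDKA1 keep their sign.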

How the data were processed

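Leaf RNA was prepared with TRIzol for Illumina sequencing, per the labels' protocols. TopHat, which aligns spliced reads, is the one tool listed per the submitters' processing notes, with no version or role. Genome build, annotation, counting program and strand use are not stated there or in the labels. The authors deposited RPKM values with 2 decimals, per the file headers. RPKM is relative to the library's total, so a shift in abundant transcripts moves all other genes.

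From these values the log2 difference with a pseudocount of 1, ratios within a library, and the shares of the 1000 genes closest in level were computed (Python 3.11.15, numpy 2.4.6, pandas 2.3.3, matplotlib 3.10.9). The code for the log2 difference and the rescalings was tested on simulated data, with 4-fold changes in genes of a mean RPKM of at least 5. Smaller changes, changes in lower genes, ratios within a library and the shares of genes closest in level were not covered by that test. No p-value was computed, as each group has 1 library. A scan of the worth of 1 read from 0.5 to 2, over 2589 low genes, was best at 1.02 (overexpression over RNAi). There 28.0% of these genes fitted a ratio of whole reads of 1 to 3, against a median of 3.79% over the scan. Relative depth thus appeared close from this part of the low genes, and absolute depth is unknown. By identifier, 0 rows matched the RefSeq table of 41476 genes. The genes and lists were chosen with earlier results of these data known. All 8 genes are named, with the gene of the largest difference. Alternatives were pseudocounts of 0.1 and 5, equal RPKM sums, median centring, a trimmed mean of ratios, no filter, a mean RPKM of at least 5, and limits of 1.5-fold and 4-fold.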

Additional observations from a re-analysis of the deposited data

How the results depend on the processing

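Only a rescaling can turn the sign of a gene's difference, since a pseudocount cannot and a filter leaves the value as it is. Of 24 rescaled values for the 8 genes, 22 kept their sign. The other 2 were those of CDKA1, at -0.035 after centring on the median and -0.048 with the trimmed mean of ratios, where the shift of all genes exceeds its difference. CCS52B was above CYCD3 with a pseudocount of 0.1, at 0.89 against 0.86. It was also above CYCD3 with the trimmed mean of ratios, at 0.685 against 0.679. With a pseudocount of 0.1, 1 of the 8 genes (WEE1) and 3 of the 11 other cell cycle loci were at least 2-fold higher, against 4.63% of all compared genes. With a pseudocount of 1 and no rescaling, these counts at the 1.5-fold limit were 4 and 6, against 9.37%. At the 4-fold limit 0 of the 11 were higher, against 0.493%. Counts at the 1.5-fold and 4-fold limits were not made with a rescaling, for these genes or for all compared genes. Only the centred value of CDKB2 was set against the 1.5-fold limit. WEE1 was left out at a mean RPKM of at least 5. With the median of the 8 genes in place of CDKA1 as reference, a setting chosen after seeing the data, every ratio for overexpression over that for RNAi was multiplied by 0.725, since that median was itself higher, at 13.1 and 19.5 RPKM. It became 1.11 in place of 1.53 for CDKB2, 1.62 in place of 2.24 for WEE1, 0.97 in place of 1.34 for CDKB1, 0.78 in place of 1.07 for Solyc12g088530, 1.23 in place of 1.69 for CYCD3, 0.62 in place of 0.85 for CCS52A and 1.26 in place of 1.74 for CCS52B. No replicate could be left out. No paired analysis was possible because each group has a single library.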
